A study of Homo sapiens with 9 samples.

Results

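The NDRG family (N-myc downstream-regulated genes) comprises NDRG1, NDRG2, NDRG3 and NDRG4. All 4 were found by symbol among the 28216 genes of a count table from prostate cancer cells, and the same 4 rows are described here in 9 RNA-seq libraries. NDRG1 was selected on its measured counts, which were far higher after androgen and lay between the LNCaP groups in PC3 cells, so its levels and fold changes are given as a description with no test. The other members were included by name. PC3 and LNCaP (clone FCG) are established lines grown from prostate cancer metastases, and the labels give the genotype WT for all libraries. The 3 PC3 libraries came from untreated cells in F12K medium with 10% FBS. The LNCaP cells were grown in RPMI with 10% FBS, moved for 24 h to phenol red-free RPMI with charcoal-stripped serum, and then given 10 nM androgen (3 libraries) or vehicle, 0.01% ethanol (3 libraries), for 48 h. The labels name the androgen as dihydrotestosterone (DHT), whereas the main text of the study names the synthetic agonist R1881. Line, medium and serum therefore differ together between PC3 and LNCaP cells and cannot be told apart, and androgen was given to LNCaP cells only. The labels do not tie the 3 libraries of a group to separate cultures. The study's methods speak of independent experiments in general, and of a batch term for the RNA-seq, without naming the libraries of each. If the libraries share a culture, the p-values measure only the spread between these libraries, which may be technical.

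In the GENCODE 44 annotation of GRCh38, the build the authors used, NDRG1 lies on chromosome 8 from 133237175 to 133302022 on the minus strand. NDRG2 lies on chromosome 14 from 21016763 to 21070872 on the minus strand. NDRG3 spans 36651766 to 36746090 on the minus strand of chromosome 20. NDRG4 spans 58462846 to 58513628 on the plus strand of chromosome 16. The MANE Select transcripts, the main transcript chosen for each gene, have 16 exons in NDRG1, NDRG2 and NDRG3 and 15 in NDRG4. No stretch of 74 bases, the read length, was shared between transcripts of different members. In NDRG1, 4.99% of such stretches also occurred in 1 other annotated gene, which has an identifier but no symbol and has no row under that identifier in the count table. The share was 0.265% in NDRG3 and 0% in NDRG2 and NDRG4.

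Proteins of the NDRG family share an alpha/beta-hydrolase fold but lack the catalytic residues of a hydrolase. NDRG1 is known as a gene induced by hypoxia, iron depletion, cell stress and, in prostate cells, androgens, and as a gene repressed by MYC proteins. Its protein is phosphorylated by SGK1 and then by GSK3, and it is studied as a suppressor of metastasis. NDRG2 is best known from brain and muscle and as a candidate tumour suppressor, NDRG3 as a lactate-binding protein that acts in hypoxia, and NDRG4 from heart and brain and as a gene whose promoter is methylated in colorectal cancer.

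RefSeq promoters, 250 bases before to 50 after a start site (GRCh38.p14), matched NDRG2 (5 promoters) and NDRG4 (4 promoters). The promoters at the MANE Select start sites are shown because these are the members whose level differed most between the cell lines, in opposite directions. Both are written 5′ to 3′ on the strand of the gene, and capitals mark the CG dinucleotides, the sites of DNA methylation.
NDRG2, chr14:21025012-21025311, minus strand: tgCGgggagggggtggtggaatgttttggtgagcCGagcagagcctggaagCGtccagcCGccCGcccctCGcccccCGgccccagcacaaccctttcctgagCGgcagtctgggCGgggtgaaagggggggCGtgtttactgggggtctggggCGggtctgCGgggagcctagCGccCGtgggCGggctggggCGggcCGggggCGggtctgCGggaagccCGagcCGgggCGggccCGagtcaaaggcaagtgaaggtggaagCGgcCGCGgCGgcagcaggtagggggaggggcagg
NDRG4, chr16:58499893-58500192, plus strand: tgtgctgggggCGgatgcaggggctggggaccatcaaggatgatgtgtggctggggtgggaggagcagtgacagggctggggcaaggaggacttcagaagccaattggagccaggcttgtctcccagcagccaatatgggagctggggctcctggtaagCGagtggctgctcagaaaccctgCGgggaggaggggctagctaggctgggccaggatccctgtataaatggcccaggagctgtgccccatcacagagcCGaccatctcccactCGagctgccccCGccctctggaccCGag
The NDRG2 promoter holds 27 CG dinucleotides and has 74.3% G or C, and 71.8% of the 35116 RefSeq promoters hold fewer. The NDRG4 promoter holds 7, and 36.8% of promoters hold fewer, with a median of 14 over all promoters. NDRG4 also has an upstream promoter at chr16:58463465-58463764, 36428 bases from the one shown, with 49 CG dinucleotides. Among the motifs searched on both strands, the core of the hypoxia response element ACGTG (found in 21.4% of all promoters) and the MYC E-box CACGTG (7.26%), which contains the letters ACGTG, did not occur in the 9 promoters of NDRG2 and NDRG4. Other motifs searched are not reported here. DNA methylation was not measured in these libraries, and counts per gene do not show which start site was used.

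Each library had between 17397706 and 25640325 counts on genes, where 3 counts, taken as the limit for a count of 0, correspond to 0.117 to 0.172 CPM (counts relative to library size, with TMM factors over all 9 libraries). KLK3, the androgen-responsive gene of prostate-specific antigen, had 20 counts in PC3 replicate 3 and 2 in each of the others, where the LNCaP libraries had between 9831 and 88995. All 4 mesenchymal markers known in PC3 (VIM, CD44, CAV1, AXL) exceeded 3 CPM in every PC3 library, with a summed level of 2294 to 2433 CPM, against 6.65 to 20.3 CPM with androgen and 1.70 to 6.97 CPM with vehicle. Of the 5 leukocyte markers, CD3E was at 0 in every library and PTPRC in every LNCaP library, and the summed level, nearly all CD68, was 31.7 to 34.6 CPM in PC3, 16.2 to 22.4 CPM with androgen and 1.63 to 2.31 CPM with vehicle. The part of these cell markers in the results below was not tested, and in bulk RNA fewer cells of a type and less RNA per cell cannot be told apart. The PC3 libraries differed from each other more than the LNCaP libraries did. Among 11462 genes above 3 CPM in all 3 PC3 libraries, 951 (8.30%) in replicate 3, 528 (4.61%) in replicate 2 and 61 (0.532%) in replicate 1 lay 1.5-fold or more from the mean of the other 2. In LNCaP libraries this share was at most 0.401%.

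NDRG1 differed widely between all 3 groups. It had 1491, 1821 and 1728 CPM in the 3 androgen-treated LNCaP libraries and 43.8, 78.9 and 59.2 CPM in the 3 vehicle-treated libraries. In PC3 replicates 1, 2 and 3 it had 216, 193 and 410 CPM. The 3 groups did not overlap, with vehicle-treated LNCaP cells lowest, PC3 cells in between and androgen-treated LNCaP cells highest, which is the pattern NDRG1 was chosen for. The mean level was 1680.0 ± 170.2 CPM with androgen, 273 ± 119 CPM in PC3 and 60.6 ± 17.6 CPM with vehicle (SD, n = 3 each). In the edgeR fits, the log2 fold change was 4.80 ± 0.15 (SE) for androgen against vehicle, 2.19 ± 0.32 for PC3 against vehicle and -2.62 ± 0.28 for PC3 against androgen. As ratios of mean CPM, androgen-treated cells had 27.7 times the vehicle level and 6.15 times the PC3 level, and PC3 cells had 4.50 times the vehicle level.

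The spread of NDRG1 in PC3 cells came from replicate 3, whose CPM was 2.01 times the mean of the other 2. Without it the PC3 mean was 204 CPM, with the TMM factors over all 9 libraries. Fits without replicate 3 gave a log2 fold change of 1.87 against vehicle and -2.91 against androgen. These fits have their own filter and TMM factors, so their values are not on the scale of that mean. In the fit against androgen NDRG3 also moved, from -0.76 to -0.62. The summed level of 8 markers of luminal prostate cells was also highest in that PC3 library, at 864 CPM against 509 and 547 CPM in replicates 1 and 2. Of 11464 genes above 3 CPM in PC3 libraries, 3.63% were at least 1.5-fold higher in replicate 3 than in the mean of the others. Among genes of the pathways described below, this held for 3 of 20 targets of hypoxia-inducible factors, 2 of 11 iron genes and 0 of 12 genes of the NDRG1 kinase pathway. None of the other members was higher in PC3 replicate 3, where NDRG2 had 0.607, NDRG3 0.966 and NDRG4 0.745 times the mean of the other 2 libraries. The part of this library in the PC3 level of NDRG1 beyond these values was not tested.

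**Figure D1:**
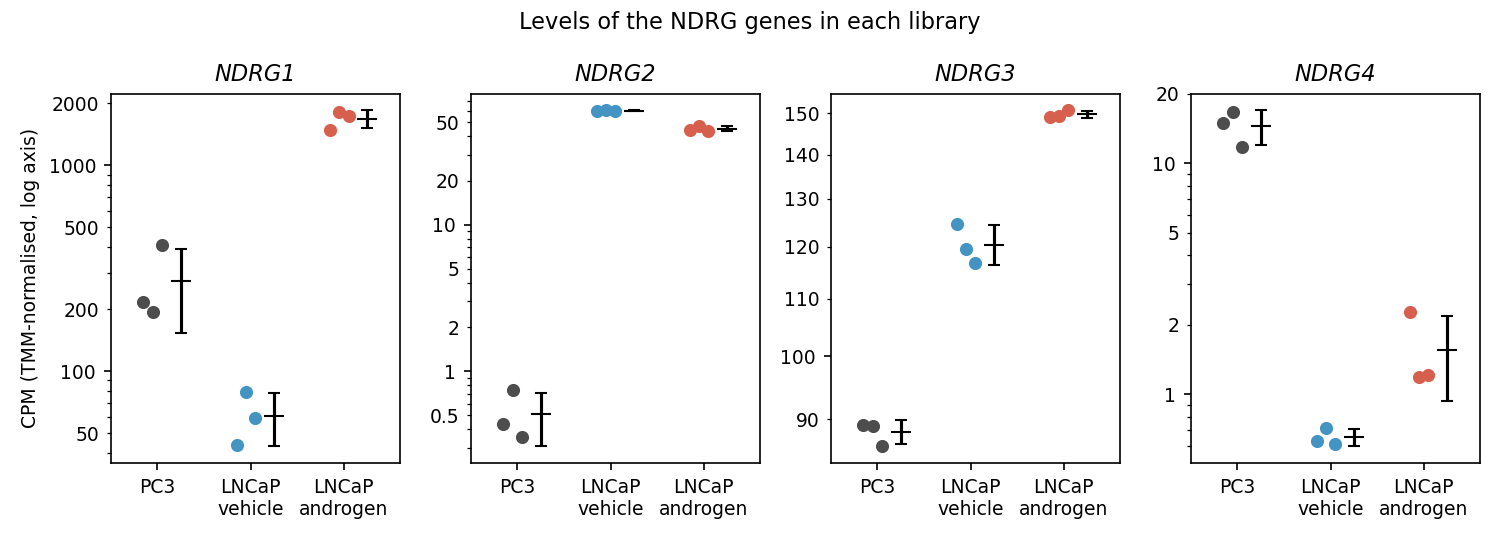
Level of each NDRG gene in CPM (TMM-normalised, log axis, a different range for each gene), with 1 point per library and the mean ± SD of 3 libraries beside it. NDRG1 was highest with androgen at 1491 to 1821 CPM, NDRG2 was at most 0.739 CPM in PC3, NDRG3 stayed between 86.0 and 151 CPM in all libraries, and NDRG4 was highest in PC3 at 11.8 to 16.7 CPM.

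NDRG2 was nearly absent from PC3 cells. The PC3 libraries had 11, 17 and 9 counts, or 0.433, 0.739 and 0.356 CPM, which is above the limit for a count of 0. In LNCaP cells the level was 44.2, 47.3 and 43.9 CPM with androgen and 59.7, 60.3 and 60.1 CPM with vehicle. Every LNCaP library was far above every PC3 library, and the LNCaP groups did not overlap, with vehicle the higher. NDRG2 was 88.6-fold lower in PC3 than in androgen-treated LNCaP cells (log2 fold change -6.47 ± 0.19 SE, adjusted p = 5.35e-08, edgeR quasi-likelihood test). Against vehicle-treated cells it was 116-fold lower (log2 fold change -6.86 ± 0.18, adjusted p = 3.10e-08). Calls required both an adjusted p under 0.05 and a difference of 2-fold or more, and NDRG2 was called lower in PC3 in both comparisons. It passed the filter on low counts there only through its LNCaP libraries, so a difference was bound to be found. With androgen, the NDRG2 level was 0.753 times the vehicle level (log2 fold change -0.41 ± 0.05, adjusted p = 4.43e-06), lower in 3 of 3 androgen-treated libraries than in any vehicle-treated library. That difference did not reach a fold change of 2 and was not called.

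In PC3 libraries NDRG2 was between 0.787% and 1.64% of its mean in androgen-treated LNCaP cells. The summed level of the 8 luminal markers was between 4.39% and 7.45% of its mean in that group, and KLK3 alone between 0.00185% and 0.0186%, so the markers did not give 1 common share. On the opposite strand, NDRG2 had no reads in PC3 libraries and at most 5 in LNCaP libraries. Of the 10 genes that lie within 50 kb of NDRG2 or overlap it, 3 exceeded 3 CPM in at least 3 libraries. METTL17, which encodes a mitochondrial methyltransferase-like protein, had 53.2 ± 1.29 CPM in PC3, 50.5 ± 2.30 CPM with androgen and 54.0 ± 1.496 CPM with vehicle (SD, n = 3), with adjusted p = 0.282 and 0.973 for PC3 against androgen and vehicle. ZNF219, a zinc finger gene, had 14.3 ± 0.853 CPM in PC3 and 12.3 ± 0.635 CPM with androgen (adjusted p = 0.0746), and against vehicle its log2 fold change was -0.26 ± 0.10 (adjusted p = 0.0479). ARHGEF40, a guanine nucleotide exchange factor gene that overlaps NDRG2 on the opposite strand, was lower in PC3 than with androgen (log2 fold change -1.16 ± 0.17, adjusted p = 0.000317) and than with vehicle (-1.79 ± 0.16, adjusted p = 1.75e-05). ARHGEF40 was the one neighbour of the 3 that was called lower in PC3, as NDRG2 was. TPPP2, RNASE7, RNASE8 and RNASE13, which overlap NDRG2, had at most 1 count in any library.

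NDRG3 varied least as a ratio between groups. Its level was 89.1, 89.0 and 86.0 CPM in PC3, 149.0, 149.4 and 150.7 CPM with androgen and 124.7, 119.6 and 116.9 CPM with vehicle. The groups did not overlap, and the order was PC3, vehicle, androgen from the lowest to the highest. With androgen the level was 1.24 times that with vehicle (log2 fold change 0.32 ± 0.04, adjusted p = 8.12e-06). PC3 cells had 0.589 times the androgen-treated level (log2 fold change -0.76 ± 0.06, adjusted p = 4.58e-06) and 0.744 times the vehicle-treated level (log2 fold change -0.43 ± 0.06, adjusted p = 0.000220). Each of these differences was larger than the spread between libraries, and none reached a fold change of 2. The coefficient of variation within a group was 0.591% to 3.29% for NDRG3, against 10.1% to 43.7% for NDRG1. Of its neighbours within 50 kb, DSN1, a kinetochore gene, was lower with androgen (log2 fold change -1.15 ± 0.08, adjusted p = 2.00e-08), whereas RAB5IF, which encodes a RAB5-interacting protein, was higher by 0.65 ± 0.06 on the log2 scale (adjusted p = 7.20e-07) and under a fold change of 2.

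NDRG4 was the only member that was called higher in PC3 cells, NDRG1 having no test. The PC3 libraries had 14.95, 16.74 and 11.81 CPM. With androgen the level was 2.28, 1.18 and 1.21 CPM, from 51, 24 and 24 counts, and with vehicle it was 0.629, 0.713 and 0.609 CPM, from 12, 13 and 12 counts. PC3 was highest and vehicle lowest, with no overlap between groups. NDRG4 was 9.19-fold higher in PC3 than in androgen-treated LNCaP cells (log2 fold change 3.199 ± 0.277, adjusted p = 1.25e-05) and 22.5-fold higher than in vehicle-treated cells (4.49 ± 0.21, adjusted p = 5.04e-07). It passed the filter in both comparisons only through PC3, so it had to differ there. In the androgen comparison NDRG4 did not pass the filter, and the log2 ratio of mean CPM was 1.26. Without the filter the log2 fold change was 1.29 ± 0.32 (adjusted p = 0.00117), and without androgen-treated replicate 1 the log2 ratio was 0.88. In that replicate the summed mesenchymal markers of PC3 were also the highest of the LNCaP libraries, at 0.859% of their PC3 mean, while NDRG4 was at 15.7% of its PC3 mean. In the other LNCaP libraries these shares were 0.0719% to 0.392% for the markers and 4.20% to 8.34% for NDRG4.

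NDRG4 also had reads on the strand opposite to the gene, which the deposited counts leave out. There were 18 to 22 such reads in PC3 libraries, 9 to 17 with androgen and 13 to 21 with vehicle. They made up 4.47% to 6.85% of the reads on NDRG4 in PC3, 19.0% to 41.5% with androgen and 51.9% to 63.6% with vehicle, where 2.33% to 3.06% of reads on genes were on the other strand in the libraries as a whole. For NDRG1, NDRG2 and NDRG3 the share was at most 0.512%. With both strands counted, the log2 fold change of NDRG4 for PC3 against vehicle was 3.38 in place of 4.49, and the gene was still called. In the androgen comparison NDRG4 did not pass the filter with both strands counted either, so no fold change was fitted. Androgen-treated replicate 3 had 24 reads on the gene's strand and 9 on the other, and vehicle-treated replicate 3 had 12 and 21. The lack of overlap between androgen and vehicle given above therefore holds for the gene's strand only. Of its 3 neighbours within 50 kb, SETD6, a methyltransferase gene, was the only one above 3 CPM, at 19.1 ± 3.18 CPM in PC3, 31.2 ± 0.724 CPM with androgen and 26.3 ± 1.11 CPM with vehicle.

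**Figure D2:**
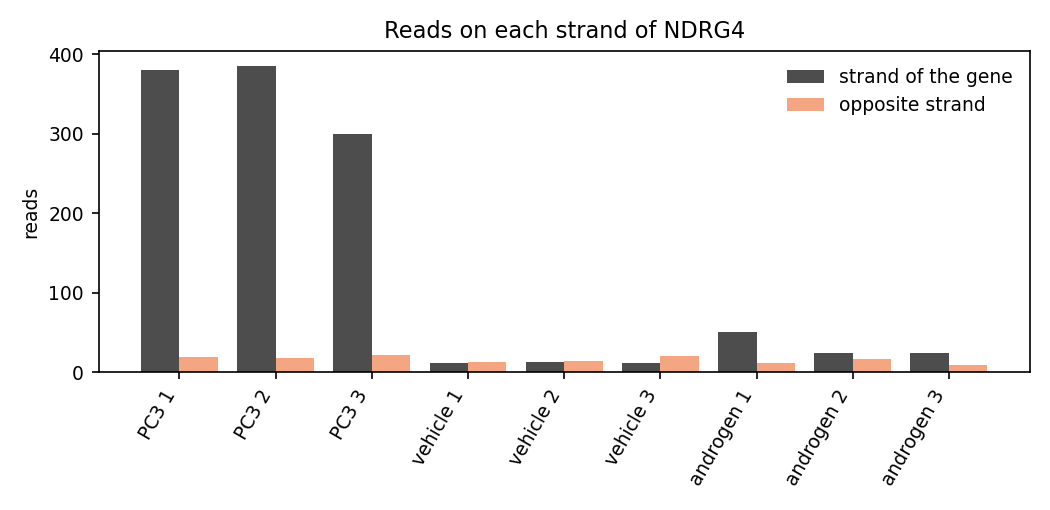
Reads on NDRG4 in each library, on the strand of the gene and on the opposite strand. Reads on the gene's strand were 299 to 385 in PC3 and 12 to 51 in LNCaP libraries, while those on the opposite strand were 9 to 22 in all 9 libraries.

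Beside NDRG1, which was chosen for such a pattern, 3 of the other 3 members had groups that did not overlap, as had 55.2% of the 12843 genes above 3 CPM in at least 3 libraries. In the androgen comparison 1641 of 11697 genes (14.0%) were called, 6.54% higher and 7.49% lower, and 0 of the 2 members tested there (NDRG2 and NDRG3) were called by edgeR's quasi-likelihood test. Both had an adjusted p under 0.05, as had 74.9% of all genes tested, and DESeq2's Wald test and edgeR's likelihood ratio test also left both uncalled. For PC3 against androgen 46.0% of 12541 genes were called, 24.0% higher in PC3 and 22.1% lower, and an adjusted p under 0.05 was reached by 84.0%. For PC3 against vehicle 43.2% of 12686 genes were called, 22.2% higher and 21.0% lower, and 83.4% had an adjusted p under 0.05. In each of these, 2 of the 3 members tested were called, 1 higher (NDRG4) and 1 lower (NDRG2). Both passed the filter there only through the cell line where they were high, so these calls were bound to be made. NDRG3, which passed the filter in every group, was not called. The comparisons share libraries in pairs, so their values are not independent of each other.

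**Figure D3:**
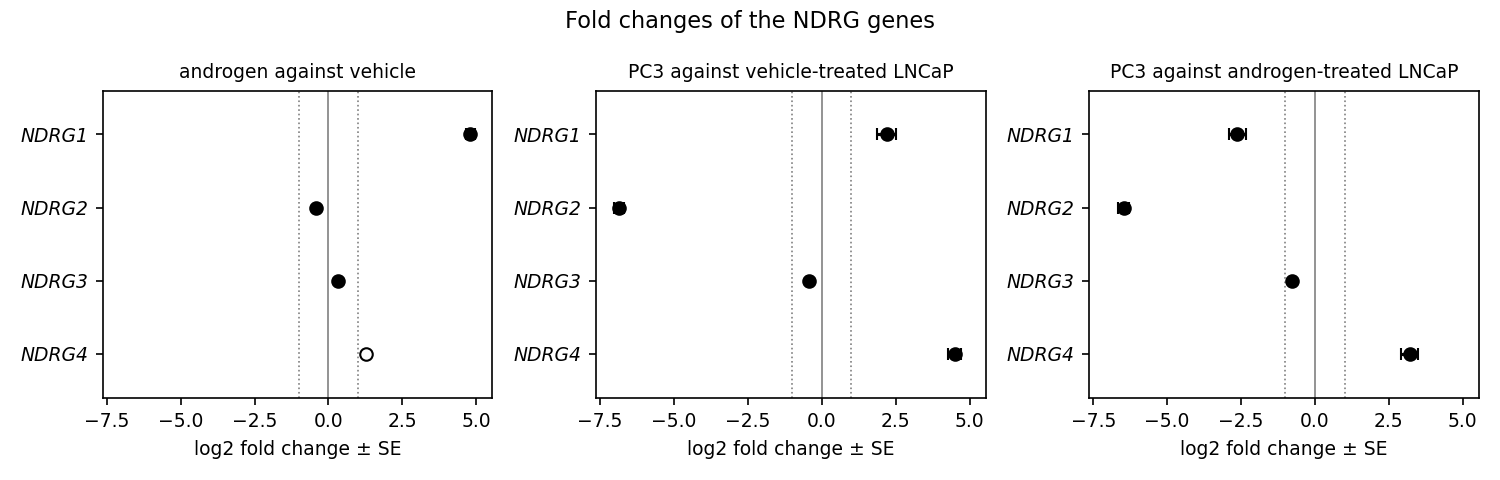
Log2 fold change ± SE of each NDRG gene in the 3 comparisons, with dotted lines at a fold change of 2. The open point, without an error bar, is the log2 ratio of mean CPM for NDRG4, which did not pass the filter in the androgen comparison, and NDRG1 is shown as a description.

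To compare the members with each other, CPM were divided by gene length. Per kb of all merged exons (3260 to 12002 bases), the summed level of the family was 176 to 204 CPM per kb with androgen, 45.2 to 61.9 in PC3 and 48.8 to 51.3 with vehicle, where the last 2 groups overlapped. Per kb of the longest transcript they did not overlap, with 81.9 to 134 CPM per kb in PC3 and 73.0 to 80.4 with vehicle, and neither did they per kb of the MANE Select transcript (the main transcript), with 99.3 to 168 in PC3 and 76.7 to 86.8 with vehicle. Per kb of merged exons, NDRG1 made up 70.6% to 74.4% of the family sum with androgen and 7.32% to 12.8% with vehicle. On the same length, NDRG3 made up 71.5% to 76.7% with vehicle, where NDRG2 followed with 15.6% to 16.3%. NDRG4 was the smallest part of this merged-exon sum in LNCaP cells, at most 0.144%, and NDRG2 was the smallest in PC3, at most 0.216%. The merged exons of NDRG1 come from 61 annotated transcripts and those of NDRG3 from 5, and the MANE Select transcripts have nearly the same length (2971 to 3208 bases). Per kb of the MANE Select transcript, a choice made after the merged lengths were seen, the share of NDRG1 was 88.2% to 90.0% with androgen, 64.3% to 80.6% in PC3 and 18.9% to 30.0% with vehicle. NDRG1 was the leading member with androgen and NDRG3 with vehicle under merged exons, MANE Select transcripts and longest transcripts. In PC3 replicates 1 and 2 the order depended on the length, with shares for NDRG3 of 58.3% and 60.3% and for NDRG1 of 38.3% and 35.6% per kb of merged exons, but 28.3% and 30.2% against 67.2% and 64.3% per kb of the MANE Select transcript. In PC3 replicate 3 NDRG1 was the larger under both, with 55.3% against 42.7% for NDRG3 per kb of merged exons and 80.6% against 17.2% per kb of the MANE Select transcript.

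**Figure D4:**
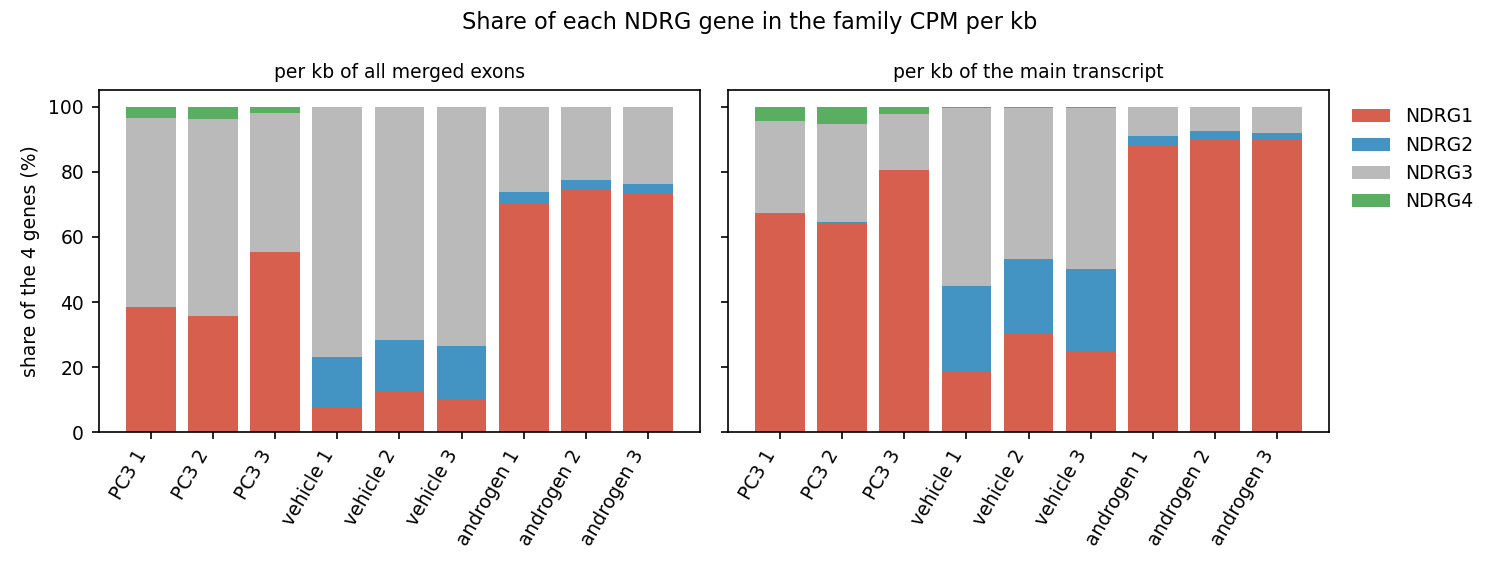
Share of each NDRG gene in the summed CPM per kb of the 4 genes in each library, with gene length taken as all merged exons (left) or as the MANE Select transcript (right). NDRG1 was the largest part with androgen and NDRG3 with vehicle in all 3 libraries under either length, while in PC3 the order of NDRG1 and NDRG3 changed with the length in replicates 1 and 2, and NDRG1 was the larger in replicate 3 under either length.

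The genes most similar to each member were sought among 12843 genes, by the root mean square (RMS) difference of mean-centred log2 CPM over the 9 libraries. These values rest on only 3 groups from 2 cell lines and are a description, and since the RMS depends on how much a member varies, it is not compared between members. For NDRG1 the nearest genes were MICAL1, an actin-oxidising monooxygenase (RMS 0.489 log2 units), LOX, lysyl oxidase (0.567), CXCR4, a chemokine receptor (0.600), REP15, a RAB15 effector (0.611), and PTGER4, a prostaglandin receptor (0.628). MICAL1, the closest, had 26.4 CPM in PC3, 177 CPM with androgen and 11.4 CPM with vehicle on average. LOX, CXCR4 and REP15 had means of only 0.946 to 1.67 CPM in PC3 and 0.0707 to 0.269 CPM with vehicle. With vehicle, CXCR4 and REP15 were under the limit for a count of 0. The closeness of these genes to NDRG1 therefore rests on low counts outside the androgen-treated libraries. For NDRG2 they were GRK1, MKRN3 and ZFP37 (RMS 0.230 to 0.234), which had mean levels of 7.22 to 25.7 CPM in LNCaP groups and at most 0.109 CPM in PC3. For NDRG3 they were PDPK1 (RMS 0.0223), SNX1 (0.0261), a retromer-associated sorting nexin, and EAF1 (0.0342), an elongation factor partner. PDPK1 encodes the kinase PDK1 that activates AKT and SGK kinases, and its mean levels of 43.3, 72.9 and 59.5 CPM in PC3, androgen and vehicle kept the order seen for NDRG3. For NDRG4 they were ACHE, acetylcholinesterase (RMS 0.236), HECW2, a ubiquitin ligase (0.252), and SPATS2L (0.273). ACHE and HECW2 had means of at most 1.78 CPM in the LNCaP groups. By Pearson correlation in place of the RMS difference, the nearest genes shared 0 with these for NDRG1 and NDRG2 and 1 each for NDRG3 (PDPK1) and NDRG4 (ACHE).

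The genes around NDRG1 were examined as lists, beside the background given above. Over all genes tested, 6.54% were called higher and 7.49% lower with androgen. In PC3 against androgen 24.0% were called higher and 22.1% lower, and against vehicle 22.2% and 21.0%. The list of the kinase pathway around NDRG1 holds 16 genes, among them NEDD4L, which does not itself phosphorylate NDRG1. Of these, 12 were tested for androgen, 3 were called higher (SGK1, MTOR and NEDD4L) and 0 lower. The median log2 fold change was 0.17 against -0.01 over all genes. SGK1, the kinase that acts on NDRG1, had 15.2, 15.4 and 17.7 CPM with androgen and 1.73, 0.768 and 1.63 CPM with vehicle, and rose (log2 fold change 3.53 ± 0.18, adjusted p = 1.16e-09). In PC3 it had 10.8, 11.9 and 10.4 CPM, above every vehicle-treated and below every androgen-treated library, and was called against vehicle (3.01 ± 0.24, adjusted p = 9.01e-06) but not against androgen (-0.54 ± 0.11, adjusted p = 0.00211). With under 3 CPM in every vehicle-treated library, SGK1 passed the filter against vehicle only through the group where it was high. This holds for androgen against vehicle as well as for PC3 against vehicle, so a difference was bound to be found in both. MTOR, the kinase of both mTOR complexes, rose with androgen (1.94 ± 0.05, adjusted p = 1.06e-12), as did NEDD4L, a ubiquitin ligase inhibited by SGK1 (1.26 ± 0.04, adjusted p = 2.53e-11). SGK3 had a mean of 1.52 CPM with androgen and 0.479 CPM with vehicle and did not pass the filter. In PC3 against androgen 2 of 13 tested genes were called higher and 3 lower, and against vehicle 3 higher and 2 lower. RICTOR, the defining subunit of mTORC2, was higher in PC3 (1.55 ± 0.06 against androgen, adjusted p = 1.64e-07) and PRR5, another mTORC2 subunit, was lower (-2.62 ± 0.16, adjusted p = 1.41e-06), though PRR5 was under 3 CPM in every PC3 library and passed the filter only through LNCaP cells.

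Of 27 targets of hypoxia-inducible factors other than NDRG1, 23 were tested for androgen, and 5 were called higher and 1 lower (median log2 fold change 0.47). Over all genes tested for androgen, 6.54% were called higher and 7.49% lower. SLC2A3, a glucose transporter, had 13.9 ± 0.333 CPM with androgen and a mean of 0.0169 CPM with vehicle, under the limit for a count of 0. LOX was higher by 5.19 ± 0.39 on the log2 scale (adjusted p = 6.63e-08) and ANKRD37 by 3.26 ± 0.14 (adjusted p = 2.34e-10). Of these 3 genes, SLC2A3 and LOX were under 3 CPM in every vehicle-treated library and passed the filter only through the androgen-treated ones. EGLN3, a prolyl hydroxylase that marks these factors for degradation, was the gene called lower (-1.54 ± 0.10, adjusted p = 1.95e-08). In PC3 against androgen 1 of 24 tested targets was called higher and 9 lower (median -0.49), and against vehicle 5 of 22 higher and 3 lower (median -0.03). The shares over all genes were 24.0% higher and 22.1% lower against androgen, and 22.2% and 21.0% against vehicle. Among 8 tested genes of the machinery itself, 1 was called higher and 2 lower with androgen, and 2 higher and 2 lower in PC3 in each comparison. HIF1A, the alpha subunit of HIF-1, had a mean of 222 ± 8.10 CPM with vehicle and 458 ± 12.04 CPM with androgen (log2 fold change 1.05 ± 0.04, adjusted p = 6.62e-11), and was higher still in PC3 (1.13 ± 0.07 against androgen, adjusted p = 1.66e-06). EPAS1, which encodes HIF-2 alpha, was called higher in PC3 (1.42 ± 0.12 against androgen, adjusted p = 1.13e-05) but not with androgen (0.87 ± 0.14, adjusted p = 7.62e-05).

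In the MYC network, 2 of 12 tested genes were called higher and 1 lower with androgen, 1 higher and 3 lower in PC3 against androgen, and 2 higher and 1 lower against vehicle. For this and the next 2 lists, the shares over all genes were 6.54% higher and 7.49% lower with androgen. In PC3 they were 24.0% and 22.1% against androgen, and 22.2% and 21.0% against vehicle. MYC itself had 129 ± 14.2 CPM with androgen and 197 ± 4.93 CPM with vehicle (log2 fold change -0.61 ± 0.06, adjusted p = 1.53e-06, under a fold change of 2) and 232 ± 13.2 CPM in PC3. MYCN, from which the family takes its name, was at 0 counts in all 9 libraries. MYCL rose with androgen (1.52 ± 0.12, adjusted p = 1.04e-07). Of 12 tested iron genes, 1 was called higher and 0 lower with androgen, 1 higher and 4 lower in PC3 against androgen, and 2 higher and 4 lower against vehicle. HMOX1, heme oxygenase 1, was the one called higher with androgen (1.12 ± 0.15, adjusted p = 1.33e-05). Of 7 tested genes of partner proteins of NDRG family members, 2 were called higher and 0 lower with androgen, 0 higher and 3 lower in PC3 against androgen, and 1 higher and 2 lower against vehicle. The 2 with androgen were RAB4A, a recycling endosome GTPase known to bind NDRG1 (1.52 ± 0.04, adjusted p = 6.36e-12), and RABAC1, a prenylated RAB acceptor (1.42 ± 0.07, adjusted p = 1.44e-09). CDH1, E-cadherin, was called lower in PC3 (-5.86 ± 0.14 against androgen, adjusted p = 2.42e-08).

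Of 12 tested genes among other known regulators of the family, 1 was called higher and 3 lower with androgen, 3 higher and 3 lower in PC3 against androgen, and 2 higher and 3 lower against vehicle. The shares over all genes were 6.54% higher and 7.49% lower with androgen. In PC3 they were 24.0% and 22.1% against androgen, and 22.2% and 21.0% against vehicle. ATF3, a stress-induced transcription factor, was the one higher with androgen (1.71 ± 0.08, adjusted p = 7.73e-10). EZH2, the histone H3K27 methyltransferase, was lower by -1.32 ± 0.07 on the log2 scale (adjusted p = 1.13e-09), and the DNA methyltransferase genes DNMT3B (-1.25 ± 0.12, adjusted p = 8.70e-07) and DNMT1 (-1.05 ± 0.06, adjusted p = 8.82e-09) were the others called lower. DNMT1 was higher in PC3 than with androgen (1.54 ± 0.20, adjusted p = 0.000161). Its level in PC3 replicates 1, 2 and 3 was 261, 324 and 180 CPM, which overlapped the 167 to 195 CPM with vehicle. TRIB3 had 394 to 779 CPM in PC3 against 150 to 185 CPM with androgen, and DDIT3 94.8 to 120 CPM against 21.3 to 34.8 CPM.

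**Figure D5:**
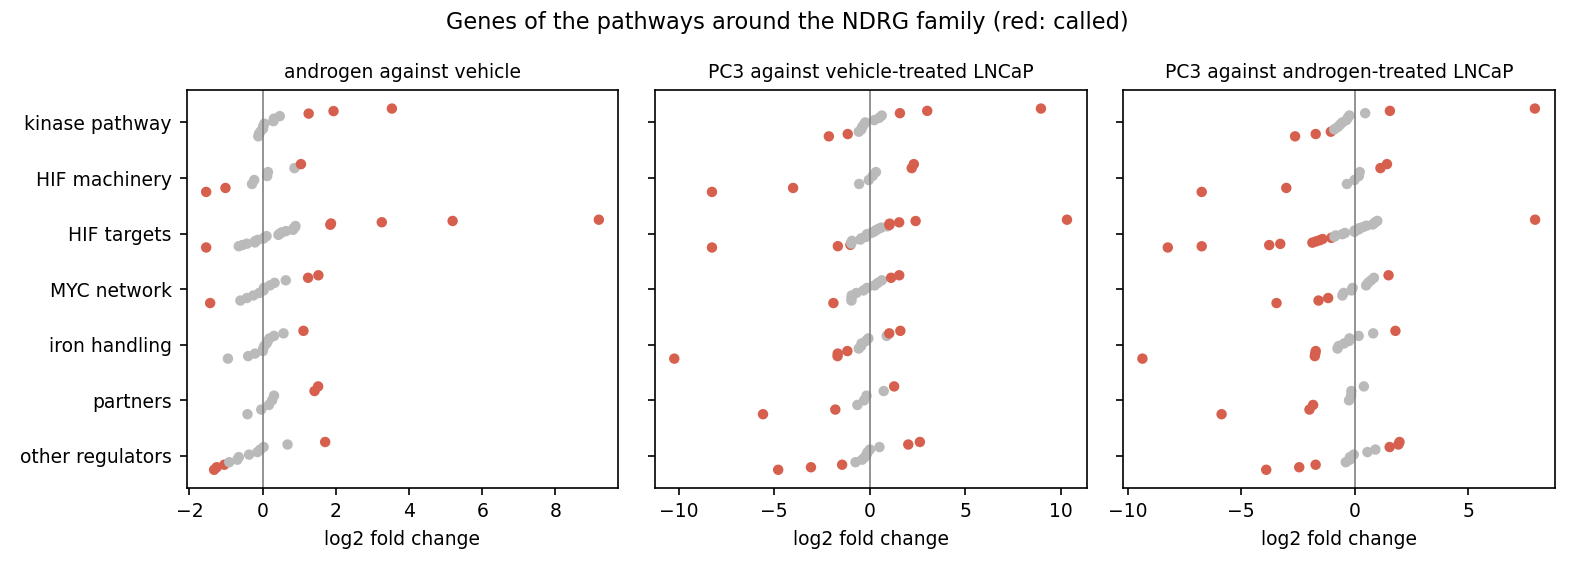
Log2 fold changes of the tested genes of 7 lists around the NDRG family in the 3 comparisons, with 1 point per gene, red where called (adjusted p under 0.05, 2-fold or more) and grey where not. In the kinase pathway 3 of 12 tested genes were called higher with androgen and 0 lower, where 6.54% and 7.49% of all genes were. Of those called, SGK1 passed the filter only through the androgen-treated libraries. Among the targets of hypoxia-inducible factors 9 of 24 were called lower and 1 higher in PC3 than with androgen (22.1% and 24.0% of all genes). Against vehicle 3 of 22 targets were called lower in PC3 and 5 higher (21.0% and 22.2% of all genes).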

How the data were processed

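Poly(A) RNA of 9 libraries was sequenced with 74 nt reads. The authors trimmed adapters (cutadapt 4.1), aligned the reads to GRCh38 with STAR 2.7.7a and removed PCR duplicates with UMI-tools 1.1.2, with versions from the submitters' processing notes. The study's methods name the same tools, with other versions of cutadapt and STAR. The authors deposited counts as whole numbers of reads per gene and library without normalization. Every value (253944 of 253944) is the same as in STAR's forward-strand output, and 0 columns were left out. Between 20.3% and 25.4% of reads were not counted on a gene. The 6 libraries of a comparison were fitted alone with edgeR 4.0.16 (R 4.3.3), using TMM normalization and the quasi-likelihood test on genes with more than 3 CPM in at least 3 libraries, without a batch term. This departs from the study's methods, where a likelihood ratio test was run with a term for experimental batch, but which do not say which libraries formed a batch. Benjamini-Hochberg adjustment covered every gene in a fit. The fit was tested on simulated data. The limit of 3 counts covers counting error only.

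The members and gene lists were chosen with earlier results of these data known. The genes named are the members, up to 3 called genes per list, comparison and direction with the largest change, the kinase pathway, HIF1A, EPAS1, MYC, MYCN and KLK3, neighbours within 50 kb and the 3 (NDRG1: 5) most similar genes. The check of the labels also names marker genes from lists of cell types. Some genes and motifs that the rule covers are not reported here, while counts over the lists include them. No promoter of NDRG1 or NDRG3 was used here.

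Replicate numbers are shared by the groups. Within LNCaP cells, libraries with the same number deviated together from their group means (r of 0.178, 0.195 and 0.177 over 11975 genes). Libraries with different numbers had r of -0.215 to 0.0333. As each group of 3 is centred on its own mean, these values are not independent. Between PC3 and vehicle, libraries with different numbers reached 0.138. A pairing by number is therefore read from the data and not from a label, and the main fits did not use it. Alternatives were DESeq2 1.42.0 (Wald test, or its size factors in edgeR), edgeR's likelihood ratio test, no filter, at least 10 counts in every library, the replicate number as a block, all 9 libraries in 1 fit, unstranded counts, the adjusted p alone and leaving out each library. The choice of TMM or DESeq2 size factors shifted the median of all genes by less than 0.1 (log2). Gene lengths and locations come from GENCODE 44.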

Additional observations from a re-analysis of the deposited data

Results flagged for a closer look

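Reads on the strand opposite to NDRG1 lie outside the deposited counts and were more numerous than in vehicle-treated LNCaP cells, the control. The mean was 126 reads in androgen-treated LNCaP libraries (97 to 148) and 24.7 in PC3 libraries (15 to 42), against 2 to 6 reads with vehicle. As a share of all reads on NDRG1 they were 0.262% to 0.430% with androgen, 0.309% to 0.403% in PC3 and 0.239% to 0.512% with vehicle, so the shares of the 3 groups overlapped.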

How the results depend on the processing

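Without a filter on low counts, 2941 genes were called for androgen, 9147 for PC3 against androgen and 8713 for PC3 against vehicle. With the adjusted p alone the counts were 8763, 10530 and 10577, since the fold change of 2 was dropped. Leaving out each library in turn gave 1404 to 1551, 4633 to 5006 and 4361 to 4593 calls. The filter of at least 3 libraries was kept in these fits, so genes above 3 CPM only in the reduced group were no longer tested. For PC3 against androgen, 11313 to 11697 genes were tested in place of 12541. For NDRG4 with androgen, the log2 ratio of mean CPM ranged from 0.88 to 1.42 when a library was left out, with the lowest value without androgen-treated replicate 1. With the replicate number as a block, 1638, 5756 and 5495 genes were called, and no call of a member changed. Where they passed the filter, NDRG2, NDRG3 and NDRG4 kept their direction and their call in every alternative that tested them with the fold change of 2. With the adjusted p alone, NDRG2 and NDRG3 would be called for androgen and NDRG3 in both PC3 comparisons. NDRG2 could not be tested in PC3 comparisons with at least 10 counts in every library or when a LNCaP library was left out, and NDRG4 could not be tested there when a PC3 library was left out. NDRG4 with androgen, which the filter had removed, passed both thresholds in 3 alternatives, with log2 fold changes of 1.27 to 1.29. All 3 used reads on the gene's strand only, and with both strands counted NDRG4 did not pass the filter in this comparison. The adjusted p was 0.00117 without a filter, 0.00223 with at least 10 counts in every library and 0.00892 with all 9 libraries. The log2 fold change of NDRG1 ranged from 4.59 to 5.01 for androgen, from -2.91 to -2.30 for PC3 against androgen and from 1.87 to 2.48 for PC3 against vehicle. Levels per length moved with the gene length used. The low counts of NDRG2 in PC3 and of NDRG4 in LNCaP cells limit the precision of their fold changes.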
